A study of Mus musculus with 6 samples.

Results

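The 38 genes described here encode the fibroblast growth factor (FGF) ligands, their receptors, and the feedback genes that FGF signaling switches on through the kinase ERK. They were taken by symbol from the 24393 features of the count tables: every gene named Fgf and a number except Fgf5, the receptor genes Fgfr1 to Fgfr4 and Fgfrl1, the Sprouty genes Spry1 to Spry4, the Spred genes Spred1 to Spred3, the phosphatase genes Dusp4 and Dusp6, and the ETS transcription factor genes Etv1, Etv4 and Etv5. The choice by symbol used no measured value, but it was made with earlier results of these data known.

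RNA was sequenced from undifferentiated KH2 mouse embryonic stem cells (strain given as C57/BL/6), in 3 control cultures and 3 cultures of genotype HOXA13. KH2 cells carry a docking site for flp recombinase, and the study's methods describe the insertion there of human HOXA13 with a FLAG tag, to be switched on by doxycycline. HOXA13 is a homeodomain transcription factor of the hindgut and the distal limb. All 6 cultures were kept in medium with serum and LIF, which holds mouse embryonic stem cells undifferentiated, on irradiated 3T3-Swiss albino mouse fibroblasts. The labels give no treatment for any of them, and the doxycycline exposure of the sequenced cultures is not given in the sources used here. The methods call the 3 cultures of a group biological replicates selected after clones had been targeted, without saying whether each was a clone of its own, so p-values measure the spread between these cultures.

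The control libraries held between 14608681 and 21766589 counts and the HOXA13 libraries between 13494135 and 20374341. The feature ENSG00000106031, which carries a human Ensembl identifier, took 6, 0 and 0 counts in control replicates 1 to 3 against 4298, 4177 and 2881 in HOXA13 replicates 1 to 3. Values are in CPM, the counts of a gene scaled by the TMM-corrected size of its library, unless a scale per length is named, and 3 counts, taken as the smallest level a library can show, were 0.134 to 0.227 CPM. All 10 pluripotency markers checked were detected in every library, at a summed 3012 to 3752 CPM in control and 3721 to 3870 CPM in HOXA13 cultures. In edgeR, 4 were higher in HOXA13 cultures (Nanog, Sox2, Klf4 and Esrrb) and 2 lower (Tdgf1 and Dnmt3b), beside 14.4% and 13.3% of all genes tested. Of these, Nanog and Tdgf1 were called in every fit that left out a library, while DESeq2 called 2 higher and 2 lower. The 18 fibroblast markers, which the feeder cells could bring in, took 0.713% to 1.06% of the counts of a library. None of these 18 was at 0 in any library, Lum and Fap stayed under 1 CPM in all 6, and 0 passed an adjusted p of 0.05 in edgeR (1 higher and 1 lower at an unadjusted p under 0.05 and with DESeq2, and 0 with limma-voom).

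FGF ligands are secreted proteins that bind receptor tyrosine kinases together with heparan sulfate, and the receptors pass the signal through Ras, Raf and MEK to ERK. ERK activity raises the transcription of Sprouty, Spred and Dusp genes, whose products dampen the same pathway, and of the ETS factor genes Etv4 and Etv5. In mouse embryonic stem cells, FGF4 made by the cells themselves is the best known stimulus of ERK and prepares them for differentiation, while Fgf8 is known from the epiblast and primitive streak of the gastrulating embryo.

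Of the 38 genes, 26 had enough counts for the test and 12 did not. The quasi-likelihood test of edgeR was applied to 13846 genes, with Benjamini-Hochberg adjustment over all of them, and 15 of the 26 (57.7%) passed an adjusted p of 0.05, beside 27.7% of all genes. In the HOXA13 cultures, 7 rose (Fgfr2, Dusp6, Spred2, Spry1, Etv4, Spry2 and Dusp4), where 14.4% of all genes rose, and 8 fell (Fgf15, Etv1, Fgf8, Fgf17, Spred3, Fgfrl1, Fgf13 and Fgf4), where 13.3% of all genes fell. Of the 17 secreted ligands, 9 could be tested, 4 fell and 0 rose in edgeR (0 rose also at an unadjusted p under 0.05, with DESeq2 and with limma-voom), at a median log2 fold change of -1.02, whereas 11 of the 12 Sprouty, Spred, Dusp and ETS genes could be tested, 6 rose and 2 fell, at a median of 0.51. Of these 6, Dusp6 and Spred2 were called in every fit that left out a library, and the difference between both groups of genes was not tested. Over all genes tested, the median log2 fold change was 0.00. The size of the change was 1 or more on the log2 scale in 8 of the 15, and in 8.14% of all genes.

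**Figure D1:**
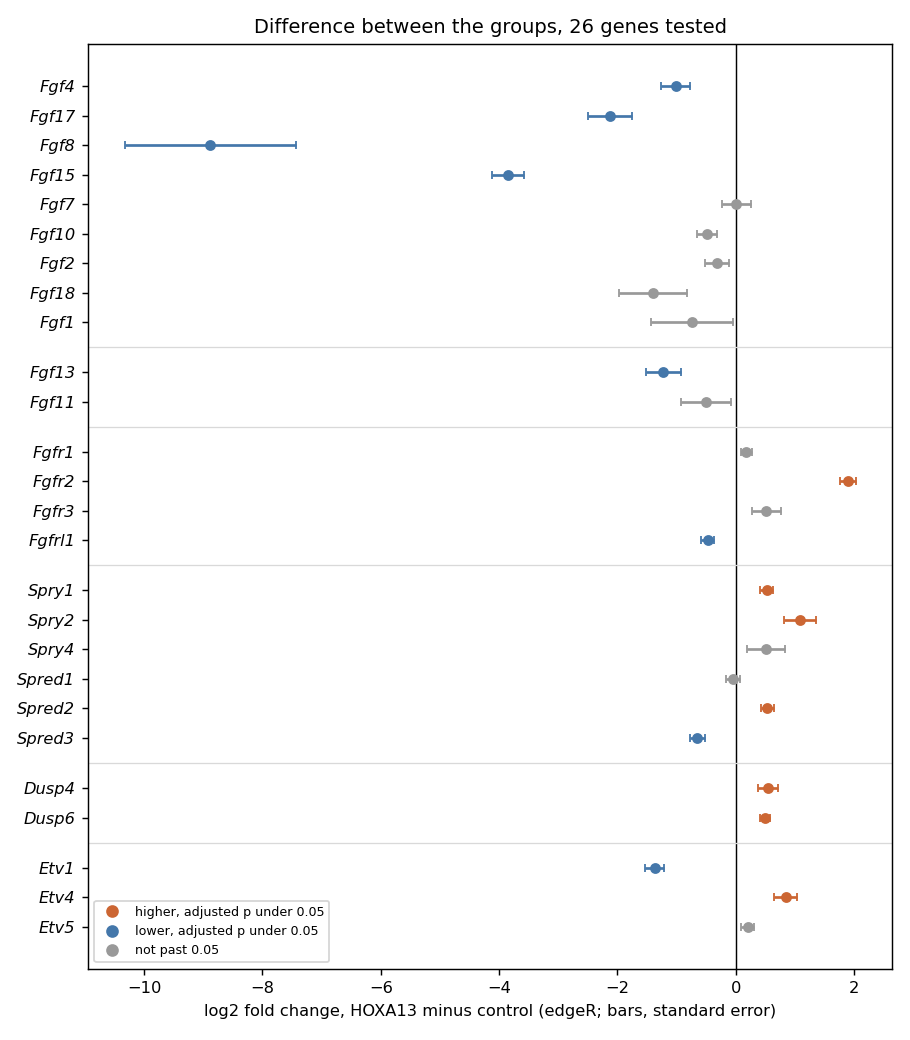
Log2 fold change of the 26 tested genes, HOXA13 minus control, from edgeR, grouped from top to bottom into secreted ligands, intracellular FGFs, receptors, Sprouty and Spred genes, phosphatases and ETS factors (bars, standard error; colour marks genes past an adjusted p of 0.05). No coloured secreted ligand lies to the right of 0, and Fgf8 lies farthest left at -8.88.

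The 250 bases before the start sites of 5 of the genes show the promoter sequence of the receptor gene that rose most (Fgfr2), of the ligand with the highest level (Fgf4) and of 3 genes whose windows held a searched motif. Sequences are those of RefSeq on GRCm38.p6, 5′ to 3′ on the strand of the gene, and capitals mark matches to TTTATNG or AATAAAA, letters of the motifs of HOX group 13 proteins, or to CCGGAAGT, letters of the ETS motif, on either strand.
Fgfr2, chr7:130266809-130267058, minus strand: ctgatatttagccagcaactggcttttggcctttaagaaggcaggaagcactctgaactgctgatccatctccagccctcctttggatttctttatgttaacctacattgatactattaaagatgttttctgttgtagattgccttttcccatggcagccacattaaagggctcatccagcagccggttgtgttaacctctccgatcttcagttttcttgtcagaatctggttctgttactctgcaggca
Fgf4, chr7:144861136-144861385, plus strand: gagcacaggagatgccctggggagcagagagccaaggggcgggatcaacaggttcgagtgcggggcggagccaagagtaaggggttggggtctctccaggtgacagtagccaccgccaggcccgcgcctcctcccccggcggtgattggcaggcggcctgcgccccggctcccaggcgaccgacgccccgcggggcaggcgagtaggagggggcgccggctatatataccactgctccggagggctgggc
Fgf7, chr2:126034408-126034657, plus strand: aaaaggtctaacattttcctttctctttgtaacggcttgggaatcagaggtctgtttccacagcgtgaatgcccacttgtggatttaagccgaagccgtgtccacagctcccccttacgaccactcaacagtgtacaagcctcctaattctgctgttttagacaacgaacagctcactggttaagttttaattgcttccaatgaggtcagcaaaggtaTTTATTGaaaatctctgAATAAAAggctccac
Fgfrl1, chr5:108693979-108694228, plus strand: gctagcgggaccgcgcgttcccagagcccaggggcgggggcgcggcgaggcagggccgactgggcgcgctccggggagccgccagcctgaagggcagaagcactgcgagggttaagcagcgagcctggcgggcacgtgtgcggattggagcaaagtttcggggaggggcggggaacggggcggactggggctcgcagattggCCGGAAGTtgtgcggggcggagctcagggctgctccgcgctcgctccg
Spred2, chr11:19924192-19924441, plus strand: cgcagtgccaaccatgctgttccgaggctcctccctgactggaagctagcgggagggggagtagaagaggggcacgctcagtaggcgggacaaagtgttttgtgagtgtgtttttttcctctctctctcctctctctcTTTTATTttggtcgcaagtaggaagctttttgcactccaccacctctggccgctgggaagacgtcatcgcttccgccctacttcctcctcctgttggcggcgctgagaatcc
For 27 of the 38 genes a window from 250 bases before to 50 bases after a start site was given, 36 windows in all. TTTATNG lay in the windows of 2 genes, Fgf7 and Fgfr3, and in 10.9% of the 32851 mouse windows of this length. AATAAAA lay in those of Fgf7 and, on the opposite strand, Spred2, and in 8.39% of all windows. In the Fgf7 window, these matches began 32 and 15 bases before the start site and did not overlap, although the 2 motifs can share letters. CCGGAAGT was found 48 bases before the start site of Fgfrl1 and in 3.89% of all windows. The windows of Fgfr2 and Fgf4 held none of these letters and differed in base composition, with 43.7% and 69.7% G or C over the 300 bases. Such matches describe these windows and show no binding.

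Fgf4 (chromosome 7 of mm9, 152047291 to 152051148) fell in the HOXA13 cultures. Control replicates 1, 2 and 3 held 55.6, 126.3 and 88.8 CPM of it, and the HOXA13 replicates 44.4, 42.3 and 46.5 CPM. Every HOXA13 library was below every control library, control replicate 1 lay closest to them, and the HOXA13 libraries differed far less among themselves. The change was 2.03-fold (log2 fold change -1.02, standard error 0.25, edgeR adjusted p = 0.0191). The call held without control replicate 1 (log2 fold change -1.27, edgeR adjusted p = 0.000112) and without control replicate 2 (log2 fold change -0.71, edgeR adjusted p = 0.00901). It was lost without control replicate 3 or any 1 HOXA13 library. There the log2 fold change was between -1.05 and -0.98 and the adjusted p 0.0586 to 0.0882 (edgeR).

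Fgf8 and its relatives Fgf17 and Fgf18 form a subfamily that patterns the early embryo, and Fgf8 and Fgf17 fell. For Fgf8 (chromosome 19, 45811288 to 45817405), 961, 43 and 365 reads were counted in control replicates 1 to 3, or 42.9, 2.92 and 18.4 CPM, and 1, 1 and 0 reads in HOXA13 replicates 1 to 3. The control libraries thus spanned a wide range, and all 3 HOXA13 libraries were under the 3-count limit. Against that limit the mean of the control libraries was at least 118-fold higher, and single control libraries were at least 16.1 to 236-fold higher (edgeR adjusted p = 0.00336, fitted log2 fold change -8.88 with a standard error of 1.45, a size that depends on the prior count). With limma-voom the adjusted p was 0.0583.

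The Fgf8 level of the control libraries had the same order as the summed markers of the primitive streak. This order, replicate 1, then 3, then 2, is found in 25.5% of all genes tested, and each streak marker checked but Tbx6 had it. The 9 streak markers checked summed to 340.3, 34.0 and 152.6 CPM in control replicates 1, 2 and 3, the same order as Fgf8, and to 20.6 to 22.8 CPM in the HOXA13 libraries. Of the 7 that could be tested, 3 fell (T, Mixl1 and Eomes) and 0 rose in edgeR, beside 13.3% and 14.4% of all genes tested. Of these 3, T alone was called in every fit that left out a library. Of the list, limma-voom called 0 lower and DESeq2 called 4 lower. Mesp1 was at 0 in all HOXA13 libraries and in control replicate 2. In such bulk RNA, fewer cells of a type and less RNA per cell cannot be told apart, and the part of streak marker expressing cells in the Fgf8 values was not tested. Fgf5, a ligand of the epiblast that the choice by symbol leaves out, had 36.3, 6.25 and 23.8 CPM in the control libraries and 0.605 to 0.965 CPM in the HOXA13 libraries, also in that order.

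Fgf17 (chromosome 14, 71036012 to 71042075) was at 31.9, 70.1 and 23.5 CPM in the control libraries and at 9.65, 9.96 and 8.84 CPM in the HOXA13 libraries. Here control replicate 2, the lowest for Fgf8, was the highest, and the groups did not overlap. The gene fell 4.37-fold (log2 fold change -2.13, standard error 0.38, edgeR adjusted p = 0.00486), and this call held in all 6 fits that left out a library. Fgf18 was at 1.65, 5.50 and 1.21 CPM in control and 1.02, 0.936 and 1.13 CPM in HOXA13 cultures, and its log2 fold change of -1.40 did not pass in edgeR (standard error 0.57, adjusted p = 0.106). It passed without control replicate 1 (adjusted p = 0.0462) and with DESeq2 (adjusted p = 0.0472).

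Fgf15, an endocrine ligand and the mouse counterpart of human FGF19, fell with the lowest adjusted p among the ligands. The gene (chromosome 7, 152082437 to 152086858) had 9.59, 15.8 and 13.6 CPM in the control libraries and 0.660, 0.936 and 1.13 CPM in the HOXA13 libraries. The lowest control library was thus well above the highest HOXA13 library. The change was 14.4-fold (log2 fold change -3.85, standard error 0.27, edgeR adjusted p = 6.88e-05) and was called in all 6 fits without 1 library. The antisense gene Gm17685 overlaps 478 bases of its exons, and the strand setting of the counting is not given in the sources used here.

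The other secreted ligands either did not pass or were near the limit of detection. Fgf7, a mesenchymal ligand for epithelial receptors, was at 15.5, 34.5 and 27.2 CPM in control and 26.1, 26.1 and 25.0 CPM in HOXA13 cultures (log2 fold change 0.01, standard error 0.24, edgeR adjusted p = 0.979). Its order among the control libraries differed from that of the summed fibroblast markers, at 6922, 9745 and 9806 CPM, only in replicates 2 and 3. The order seen for Fgf7 is found in 23.6% of all genes tested, and the part of feeder cells in its values was not tested. Fgf10, which serves in lung and limb budding, was at 9.50 to 11.4 CPM in control and 6.35 to 9.07 CPM in HOXA13 cultures without overlap, and missed the threshold in edgeR (log2 fold change -0.49, standard error 0.16, adjusted p = 0.0596). It passed with limma-voom (adjusted p = 0.0418), with scaling by library size alone (edgeR adjusted p = 0.0383) and without HOXA13 replicate 3 (edgeR adjusted p = 0.0395). Fgf2, whose exons overlap those of the antisense genes Nudt6 and Cetn4, was at 3.88 to 4.60 CPM in control and 2.95 to 4.16 CPM in HOXA13 cultures, and Fgf1 was at 0.312 to 2.04 CPM over all libraries, with edgeR adjusted p of 0.266 and 0.467.

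The remaining 8 secreted ligands had too few counts to test. Fgf6 was listed at 0 in all libraries, and Fgf9, Fgf16, Fgf20, Fgf21, Fgf22 and Fgf23 had between 0 and 8 counts in each. Fgf3, the neighbor of Fgf4 on chromosome 7, differed from these, with 17, 8 and 7 reads counted in control replicates 1 to 3 and 1, 0 and 0 in HOXA13 replicates 1 to 3. The mean of its control libraries was at least 3.04-fold above the 3-count limit over the HOXA13 group. Without a filter on low counts its adjusted p was 0.00469 in edgeR.

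Fgf11 to Fgf14 encode intracellular FGFs, which are not secreted, do not signal through FGF receptors and are known to bind sodium channels. Fgf13 (chromosome X, 56315322 to 56821248) was at 11.9, 4.96 and 8.54 CPM in the control libraries and at 3.66, 3.74 and 3.55 CPM in the HOXA13 libraries, with control replicate 2 nearest to the HOXA13 libraries as for Fgf8. It fell 2.34-fold (log2 fold change -1.22, standard error 0.29, edgeR adjusted p = 0.0174). Without control replicate 3 or any 1 HOXA13 library the adjusted p was 0.0550 to 0.0810 (edgeR). Fgf11 was at 0.406 to 1.11 CPM over all libraries (log2 fold change -0.51, edgeR adjusted p = 0.409), and Fgf12 and Fgf14, at 0 to 13 counts, were not tested.

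**Figure D2:**
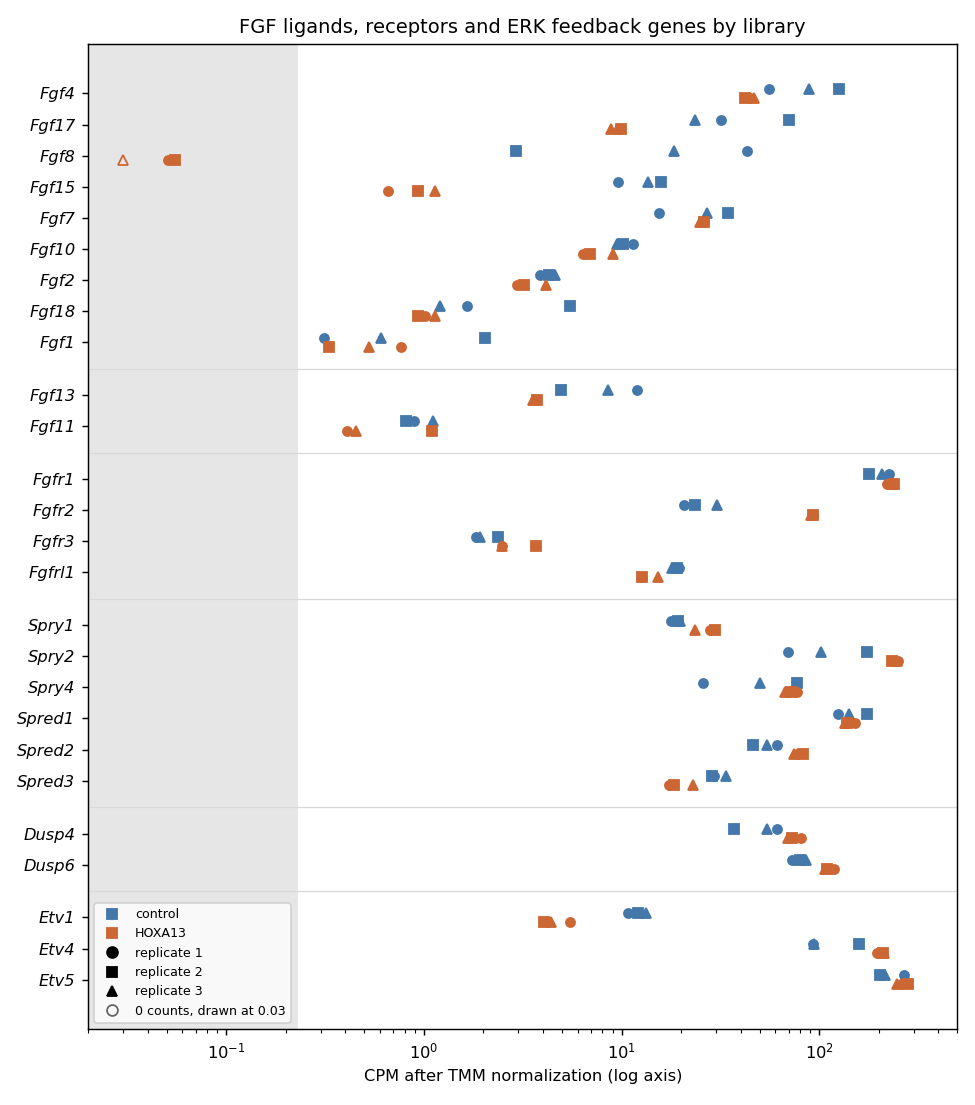
Level of the 26 tested genes in each library in CPM on a log axis, in the same groups as above (blue, control; orange, HOXA13; circles, squares and triangles, replicates 1, 2 and 3; grey, below the largest 3-count limit of 0.227 CPM). The HOXA13 libraries lie close together for most genes, while those of Fgf8 lie in the grey area and the control libraries of Fgf8 run from 2.92 to 42.9 CPM.

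Levels can be compared between genes only per length, so counts were also scaled to the longest annotated transcript and library size (RPKM). Summed over the 17 secreted ligands, the level was 93.5, 119.7 and 84.4 RPKM in control and 35.9, 36.0 and 37.9 RPKM in HOXA13 cultures, which is 99.2 ± 18.3 against 36.6 ± 1.15 RPKM (SD, n = 3 each). In control cultures, Fgf4 (29.8 RPKM), Fgf17 (24.8 RPKM) and Fgf8 (18.3 RPKM) led, in ranges that overlapped. In HOXA13 cultures, the order was Fgf4 at 14.7, Fgf7 at 9.64 and Fgf17 at 5.62 RPKM, in ranges that did not overlap. As a share of this ligand RNA, Fgf8 made up 39.2%, 2.09% and 18.7% of the control libraries and a mean of 0.0840% in HOXA13 cultures. The share of Fgf15 went from 7.28% ± 1.62 to 1.37% ± 0.32, and that of Fgf7 from 9.69% ± 3.07 to 26.4% ± 1.45 (SD, n = 3 each), while Fgf7 itself had a log2 fold change of 0.01. Fgf4 kept the highest mean level in both groups, with 29.7% ± 8.75 and 40.0% ± 1.08 of the sum.

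Among the receptors, 1 of the 4 tested rose and 1 fell, beside 14.4% and 13.3% of all genes tested. The one that rose was Fgfr2 (chromosome 7, longest transcript 137306026 to 137409759), known in the early embryo from the primitive endoderm and the trophectoderm. Fgfr2 was at 20.6, 23.6 and 30.2 CPM in the control libraries and at 93.2, 92.9 and 91.0 CPM in the HOXA13 libraries. Every HOXA13 library was far above every control library, and the 3 of them nearly coincided. The gene rose 3.73-fold (log2 fold change 1.90, standard error 0.13, edgeR adjusted p = 6.32e-05) and was called in all 6 fits without 1 library. As annotated, the gene also reaches upstream to share exon bases with Ctbp2 on the same strand. The log2 fold change of Ctbp2 was 0.12 (edgeR adjusted p = 0.399).

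Fgfr1 (chromosome 8, 26624126 to 26686186), the main FGF receptor gene of embryonic stem cells, was at 225.9, 178.6 and 208.6 CPM in control and 219.9, 239.4 and 234.0 CPM in HOXA13 cultures. The groups overlapped, and the difference did not pass in edgeR (log2 fold change 0.18, standard error 0.09, adjusted p = 0.185), although it did without control replicate 1 (log2 fold change 0.25, adjusted p = 0.0349). Fgfrl1 (chromosome 5, 109123248 to 109135969), which encodes a receptor without a kinase domain, fell from 19.4, 19.1 and 17.9 CPM to 12.7, 12.7 and 15.3 CPM (log2 fold change -0.47, standard error 0.11, edgeR adjusted p = 0.0154). Its adjusted p was 0.0734 without HOXA13 replicate 1 and 0.0788 without HOXA13 replicate 2 (edgeR). Fgfr3 did not overlap between groups, at 1.83 to 2.38 CPM in control and 2.49 to 3.69 CPM in HOXA13 cultures, but did not pass (log2 fold change 0.51, standard error 0.24, edgeR adjusted p = 0.157), and Fgfr4, at 2 to 12 counts, was not tested.

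Per length, Fgfr1 to Fgfr4 together came to 50.5, 41.8 and 49.3 RPKM in control and 65.8, 70.0 and 68.1 RPKM in HOXA13 cultures, while the ligand sum went down. Fgfr1 made up 86.7% ± 2.55 of the sum in control and 68.1% ± 1.05 in HOXA13 cultures, and Fgfr2 made up 11.9% ± 2.42 and 30.7% ± 1.10 (SD, n = 3 each). The ratio of Fgfr2 to Fgfr1 was 0.103, 0.149 and 0.163 in the control libraries and 0.478, 0.437 and 0.438 in the HOXA13 libraries. Fgfr2 thus ranked below Fgfrl1 in control cultures (5.60 against 7.08 RPKM) and above it in HOXA13 cultures (20.9 against 5.11 RPKM). Splice forms of the receptors, which set the ligands they bind, cannot be told apart in counts per gene.

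**Figure D3:**
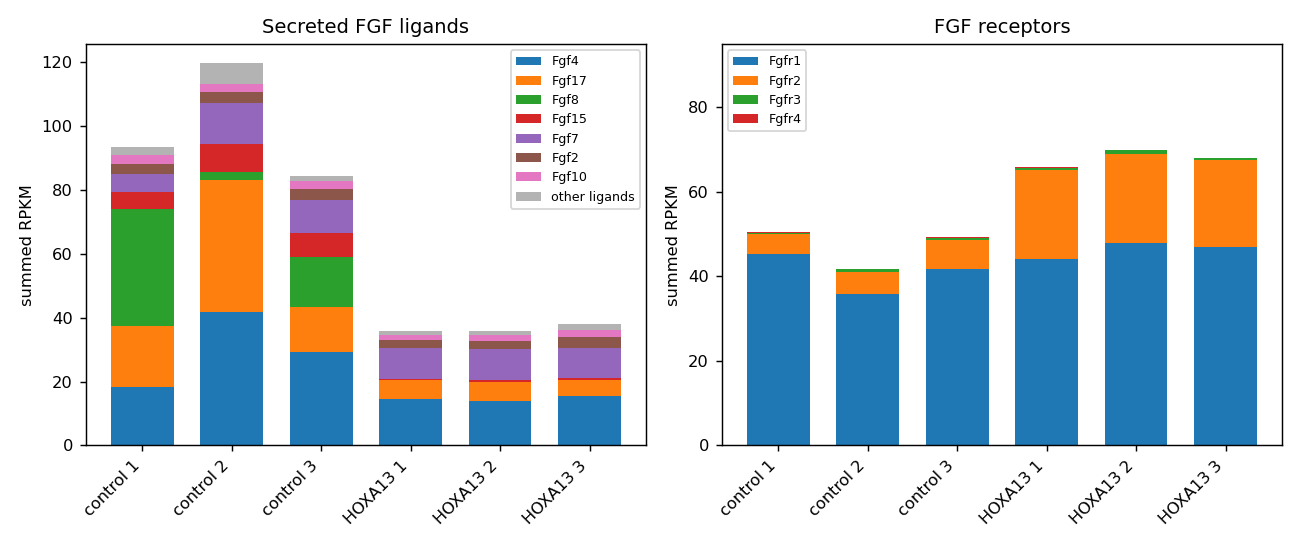
RPKM of the secreted ligands (left) and of Fgfr1 to Fgfr4 (right) stacked for each library, with each colour a gene. The ligand stacks reach 84.4 to 119.7 RPKM in control and 35.9 to 37.9 RPKM in HOXA13 cultures, while the receptor stacks reach 41.8 to 50.5 RPKM in control and 65.8 to 70.0 RPKM in HOXA13 cultures, where the Fgfr2 part is wider.

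Markers of the primitive endoderm differed in direction between the groups. Of 10 such markers checked, 9 could be tested, at a median log2 fold change of -0.14. Gata6 and Sox7 rose and Lama1 and Lamb1 fell in edgeR, where 14.4% of all genes tested rose and 13.3% fell. Sox7 was at an adjusted p of 0.0517 to 0.0586 without any 1 HOXA13 library (edgeR). The other 3 calls held in every fit that left out a library. The summed level of the 10 markers was 1306 to 1548 CPM in control and 1078 to 1238 CPM in HOXA13 cultures. Sox17 was at 0 in control replicate 3 and at 1 to 5 counts in the other libraries. The part of such cells in the Fgfr2 values was not tested.

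Sprouty proteins are inhibitors that receptor signaling induces and that hold back the Ras to ERK cascade. Spry2 (chromosome 14, 106291166 to 106296036) was at 69.8, 174.2 and 101.8 CPM in the control libraries and at 249.5, 232.7 and 247.5 CPM in the HOXA13 libraries, without overlap. It rose 2.12-fold (log2 fold change 1.08, standard error 0.28, edgeR adjusted p = 0.0220). Without control replicate 3 or any 1 HOXA13 library, the adjusted p was 0.0661 to 0.0899 (edgeR) at a log2 fold change of 1.00 to 1.11. Genes of chromosome 14 as a whole had a median log2 fold change of 0.27, and with each chromosome centred that of Spry2 was 0.85 (edgeR adjusted p = 0.00840). Fgf17 lies on the same chromosome, and its log2 fold change on that basis was -2.34.

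Spry1 (chromosome 3, 37538869 to 37543520) rose from 17.8, 19.4 and 19.7 CPM to 28.1, 29.7 and 23.4 CPM (log2 fold change 0.52, standard error 0.11, edgeR adjusted p = 0.0104), with an adjusted p of 0.0538 and 0.0554 without HOXA13 replicates 1 and 2 (edgeR). Spry4 (chromosome 18, 38745922 to 38760922) was at 25.8, 76.8 and 49.97 CPM in control and at 77.0, 71.6 and 66.9 CPM in HOXA13 cultures. Control replicate 2 lay inside the HOXA13 range, and the difference did not pass (log2 fold change 0.51, standard error 0.32, edgeR adjusted p = 0.273). Without that library, it did (log2 fold change 0.92, edgeR adjusted p = 0.0106). Spry3 was listed at 0 in every library. Together Spry1, Spry2 and Spry4 came to 73.2 ± 31.4 RPKM in control and 142.1 ± 4.34 RPKM in HOXA13 cultures (SD, n = 3 each).

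Spred genes encode Sprouty-related inhibitors that act on Raf activation, and the 3 of them differed in direction. Spred2 (chromosome 11, 19824378 to 19924029) rose from 60.9, 46.1 and 54.4 CPM to 76.8, 82.4 and 74.7 CPM (log2 fold change 0.53, standard error 0.11, edgeR adjusted p = 0.00764). Spred3 (chromosome 7, 29943848 to 29954860) fell from 29.3, 28.6 and 33.7 CPM to 17.4, 18.3 and 22.9 CPM (log2 fold change -0.65, standard error 0.13, edgeR adjusted p = 0.00696). Neither overlapped between groups, and both were called in all 6 fits without 1 library. Spred1 was at 124.1 to 174.6 CPM in control and 135.5 to 151.3 CPM in HOXA13 cultures (log2 fold change -0.05, standard error 0.12, edgeR adjusted p = 0.802).

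Dusp6 and Dusp4 encode phosphatases that inactivate ERK, in the cytoplasm and in the nucleus, and both rose by similar amounts. Dusp6 (chromosome 10, 98725865 to 98730122) was at 72.9, 80.1 and 85.7 CPM in control and 118.4, 109.9 and 106.7 CPM in HOXA13 cultures (log2 fold change 0.49, standard error 0.08, edgeR adjusted p = 0.00350), and was called in all 6 fits without 1 library. Dusp4 (chromosome 8, 35870351 to 35882948) was at 61.2, 37.2 and 54.7 CPM in control and 80.9, 73.2 and 69.6 CPM in HOXA13 cultures (log2 fold change 0.54, standard error 0.17, edgeR adjusted p = 0.0418). The groups did not overlap for either gene, yet the Dusp4 call was the less stable, with an adjusted p of 0.0860 to 0.156 without control replicate 3 or any 1 HOXA13 library and 0.0738 with scaling by library size alone (edgeR).

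Etv1, Etv4 and Etv5 encode the PEA3 group of ETS transcription factors, which act downstream of FGF receptors, and they also differed in direction. Etv4 (chromosome 11, 101631056 to 101646685) rose from 93.2, 158.9 and 94.2 CPM to 195.3, 210.8 and 212.5 CPM (log2 fold change 0.84, standard error 0.19, edgeR adjusted p = 0.0142), with an adjusted p of 0.0557 to 0.0570 without control replicate 3 or any 1 HOXA13 library (edgeR). Etv1 (chromosome 12, 39505967 to 39594802) fell from 10.8, 12.2 and 13.2 CPM to 5.48, 4.07 and 4.39 CPM (log2 fold change -1.37, standard error 0.16, edgeR adjusted p = 0.000734), a call kept in all 6 fits without 1 library. For Etv4 control replicate 2 lay nearest to the HOXA13 libraries, and for Etv1 the control libraries lay close together, and neither gene overlapped between groups.

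Etv5 (chromosome 16, 22381382 to 22439792) was at 266.9, 203.0 and 214.2 CPM in control and at 258.3, 279.7 and 247.5 CPM in HOXA13 cultures, in overlapping ranges (log2 fold change 0.20, standard error 0.11, edgeR adjusted p = 0.204), and passed without control replicate 1 (log2 fold change 0.33, edgeR adjusted p = 0.00659). Per length, Etv5 ranked above Etv4 in control cultures (57.4 ± 8.58 against 48.2 ± 15.7 RPKM, SD, n = 3 each), within the spread of the libraries. In HOXA13 cultures Etv4 ranked above Etv5 (86.1 ± 3.94 against 65.9 ± 4.12 RPKM), in ranges that did not overlap. Etv1 made up 2.62% ± 0.50 of the RNA of the 3 genes in control and 0.708% ± 0.14 in HOXA13 cultures. 

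Of the 26 genes, 18 had no overlap between the control and the HOXA13 libraries, the 15 called ones and Fgf10, Fgf18 and Fgfr3, where 45.7% of all genes tested had no overlap. The control libraries varied more than the HOXA13 libraries in 18 of the 26, close to the 71.5% of all genes tested. The median SD of log2(CPM + 0.5) over the 26 genes was 0.26 in control, against 0.16 over all genes, and 0.092 in HOXA13 cultures, against 0.090. The order of the control libraries was replicate 2, then 3, then 1 for 9 of the 26 (Etv4, Fgf1, Fgf15, Fgf4, Fgf7, Fgfr3, Spred1, Spry2 and Spry4), an order found in 23.6% of all genes. It was 1, then 3, then 2 for 6 (Dusp4, Etv5, Fgf13, Fgf8, Fgfr1 and Spred2), against 25.5%.

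Fgf4 and Spry2 had the same order among the control libraries and moved in opposite directions between groups. Per length, the ratio of Spry2 to Fgf4 was 1.83, 2.01 and 1.67 in the control libraries and 8.16, 8.00 and 7.74 in the HOXA13 libraries, or 1.83 ± 0.17 against 7.97 ± 0.21 (SD, n = 3 each). This ratio was chosen after its values were seen and was not tested. Fgf8 did not share that order, since control replicate 1 had the least Fgf4 and the most Fgf8.

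**Figure D4:**
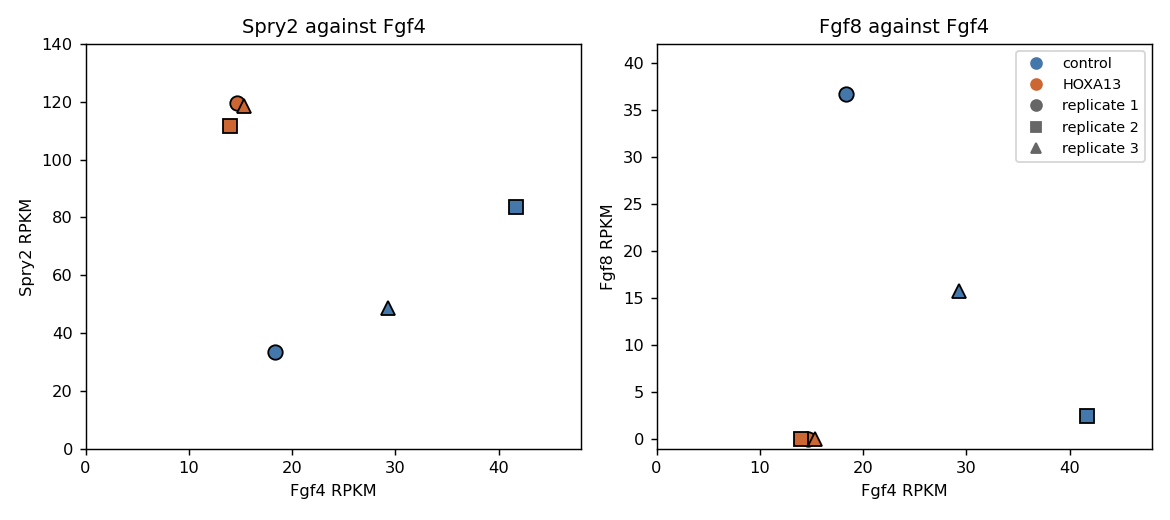
RPKM of Spry2 (left) and Fgf8 (right) against RPKM of Fgf4 in each library (blue, control; orange, HOXA13; circles, squares and triangles, replicates 1, 2 and 3). The control libraries rise together in Fgf4 and Spry2, the HOXA13 libraries lie apart at a Spry2 to Fgf4 ratio of 7.74 to 8.16, and in the right plot the control libraries run the other way.

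Fgf3, Fgf4 and Fgf15 are neighbors on chromosome 7 within 62.9 kb, with 16.95 kb between Fgf3 and Fgf4 and 31.3 kb between Fgf4 and Fgf15, so the genes around them were read as well, a choice made after their values were seen. Within 500 kb on each side of Fgf4 lay 13 features, of which 11 were tested, 3 fell and 0 rose in edgeR. Fgf4 and Fgf15, whose values had been seen before the choice, were among those 3, and 13.3% of all genes tested fell. The third to fall was Ano1, a chloride channel gene (log2 fold change -0.51, standard error 0.14, edgeR adjusted p = 0.0291), with an adjusted p of 0.0692 to 0.124 without control replicate 3 or any 1 HOXA13 library. Of these 11, 1 was higher at an unadjusted p under 0.05, and 1 was called higher with each chromosome centred. DESeq2 and limma-voom called 0 of them higher. Of the 13 features, DESeq2 called 5 lower, scaling by library size alone 4 and limma-voom 3. Oraov1 and the cyclin gene Ccnd1, the next genes after Fgf15, had log2 fold changes of 0.18 (edgeR adjusted p = 0.408) and -0.31 (edgeR adjusted p = 0.0561). Ccnd1 was called lower with DESeq2 (adjusted p = 0.0295) and with library size alone (edgeR adjusted p = 0.0227). It was also called without control replicate 1 (edgeR adjusted p = 0.00207), but not without any other library. The log2 fold changes of the other tested genes lay between -0.54 and 0.19, and none passed.

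**Figure D5:**
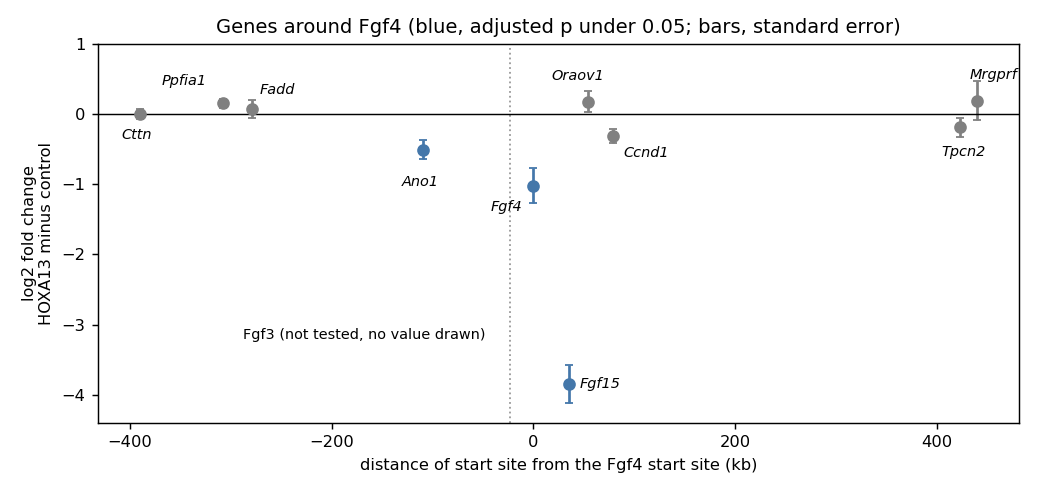
Log2 fold change, HOXA13 minus control, of tested genes around Fgf4 against the distance of their start site from that of Fgf4 in kb (bars, standard error; blue, adjusted p under 0.05 in edgeR). Fgf15 stands apart at -3.85, Fgf4 and Ano1 are the other blue points, the dotted line marks Fgf3, which was not tested, and Shank2 is not drawn because its start lies farther out.

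Of 68 other genes of the pathway, 66 could be tested, 11 rose and 12 fell, beside 14.4% and 13.3% of all genes tested, at a median log2 fold change of 0.00, and 14 of these 23 calls held in every fit that left out a library. In the Ras to ERK cascade, Rps6ka1 rose, and Mapk3 and Rps6ka2 were among the genes that fell. Of 13 tested coreceptor and adaptor genes, Shc1 rose and Gab1, Cbl and Il17rd fell. Of 19 tested genes known to respond to ERK, 6 rose (Egr1, Fos, Junb, Phlda1, Dusp1 and Dusp9) and 4 fell (Ier2, Dusp7, Rasa4 and Myc). Among 18 tested heparan sulfate genes, 3 rose (Hs6st1, Sdc4 and Gpc1) and 2 fell (Sulf1 and Gpc3). The calls of Rps6ka2, Gab1, Cbl, Egr1, Junb, Rasa4, Myc, Gpc1 and Gpc3 did not hold in every fit that left out a library.

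Of these 68 genes, Hs6st1 and Gpc3 passed with a change of at least 1 on the log2 scale. Hs6st1, a sulfotransferase that modifies the heparan sulfate to which FGF ligands bind, was at 76.9, 97.4 and 85.0 CPM in control and at 299.5, 274.9 and 275.0 CPM in HOXA13 cultures. All HOXA13 libraries were above all control libraries (log2 fold change 1.71, standard error 0.09, edgeR adjusted p = 2.08e-05). Genes of chromosome 1, where it lies, had a median log2 fold change of 0.38, and with each chromosome centred its own was 1.34 (edgeR adjusted p = 4.49e-06). Gpc3, a glypican, was at 116.2, 36.8 and 66.0 CPM in control and 28.7, 29.3 and 24.7 CPM in HOXA13 cultures (log2 fold change -1.41, standard error 0.35, edgeR adjusted p = 0.0202, and 0.0519 to 0.0888 without control replicate 3 or any 1 HOXA13 library), in the same order among the control libraries as Fgf8. That order is found in 25.5% of all genes tested.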

How the data were processed

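RNA of 3 control and 3 HOXA13 KH2 cultures was made into directional poly(A) libraries. The authors mapped the reads to mm9 with TopHat2 (2.0.14 in the submitters' processing notes), counted them per gene with HTSeq 0.6.1p1 and deposited the raw counts, one table per library. The annotation, the counting mode and the strand setting are not given in the sources used here.

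The 38 genes and the gene lists were chosen with earlier results of these data known. Genes were filtered with filterByExpr (minimum count 10, minimum total 15), scaled by TMM and tested without covariates with the quasi-likelihood test of edgeR 4.0.16 (R 4.3.3) at an adjusted p under 0.05 over all genes tested. Those of the 38 past that threshold and Fgfr1, Spry4 and Etv5 are given in every library, other pathway genes where the log2 fold change is at least 1 in size. The code was tested on simulated data. Alternatives were other scalings, filters and libraries left out, chromosome centring, DESeq2 1.42.0 and limma-voom (limma 3.58.1). Lengths and positions are from GENCODE on NCBIM37, which is mm9, where 37 of the 38 genes were placed. Figures were drawn with matplotlib 3.10.9.

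The smallest level shown, 3 counts per library, covers counting error only. A gene of the other pathway list is not reported here by name.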

Additional observations from a re-analysis of the deposited data

How the results depend on the processing

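Under RLE size factors, robust estimation, the replicate block, chromosome centring, no filter on low counts and DESeq2, all 15 called genes of the FGF group were called in the same direction. DESeq2 called 17 of the group, with Fgf18 and Fgf3 added. Scaling by library size alone lost Dusp4 and added Fgf10, and split all calls into 1576 higher and 2500 lower genes in place of 1994 and 1842. limma-voom lost Fgf8 and added Fgf10, and a minimum of 10 counts in every library left Fgf8 untested. With 1 library left out at a time, the calls among all genes ranged from 2038 to 5007, those of the FGF group from 9 (without HOXA13 replicate 1 or 2) to 18 (without control replicate 1), its higher genes from 3 to 9, and the other pathway genes from 15 to 30. In these 6 fits 8 of the 15 were always called (Fgfr2, Fgf15, Etv1, Fgf8, Dusp6, Fgf17, Spred3 and Spred2). The direction turned in 3 genes that did not pass. The log2 fold change of Fgf7 was -0.0594 with library size alone and ranged from -0.25 to 0.27 with a library left out, that of Fgf1 from -1.20 to 0.26 and that of Spred1 from -0.16 to 0.0853, and the causes were not tested.

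Replicate numbers are shared by the groups, and the labels do not say whether same-numbered cultures were handled together. The deviations of same-numbered libraries had correlations between -0.045 and 0.018. With 3 libraries a group, these values cannot decide whether the cultures were paired. With the replicate number as a replicate block, 3172 of all genes and 15 of the FGF group (7 higher, 8 lower) were called. The filter on low counts left 12 of the 38 genes untested, of which Fgf3 passed without it, and 3 libraries a group limit every test.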
